A study of Homo sapiens with 8 samples.

Results

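The genes described here are the Rab GTPases and the proteins that act directly on them, chosen by name: symbols made of RAB, a number and at most a letter and a digit, and symbols that begin with TBC1D and a number, RABGAP, RABEP, RABGEF, RAB3GAP, RAB11FIP or DENND, without antisense genes. They number 73 of the 7504 genes in the poly(A) site tables. The samples come from a breast cancer line and were profiled by mRNA 3′-end sequencing, which reads transcripts at or near the poly(A) tail. The labels name both a forward and a reverse QuantSeq kit, whereas the study's methods name the reverse kit, whose reads begin at the poly(A) tail. There were 8 samples in 4 groups with 2 replicates each. MDA-MB-231 is the parental, poorly metastatic line, and MDA-LM2 is the lung-metastatic line derived from it. The other two groups were MDA-MB-231 cells with CRISPR interference, sgControl with a non-targeting guide and sgHNRNPC with a guide that lowers HNRNPC, an RNA-binding protein of the nucleus.

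For each comparison there is a table of pairs of poly(A) sites, a proximal and a distal site of the same gene. The MDA-LM2 table comes from MDA-LM2 and MDA-MB-231 cells, and the sgHNRNPC table from sgHNRNPC and sgControl cells. No value of a single sample is used here, and the depth of the samples is unknown. What follows is therefore a description of which sites the tables list for these genes, where they lie and what sequence stands before them. It holds no measure of how strongly a site was used in any group, and no difference between the groups was computed or tested. The level of HNRNPC itself, which would check the knockdown, is not analysed here.

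Rab GTPases are small membrane-bound switches that give compartments of the secretory and endocytic pathways their identity. Guanine nucleotide exchange factors (GEFs), many with a DENN domain, load them with GTP, and GTPase-activating proteins (GAPs), most with a TBC domain, return them to the GDP-bound state. In the GTP-bound state they recruit effectors that tether, move or sort vesicles. Through recycling of integrins and secretion of vesicles, several of them are known in breast cancer cells for their part in migration and invasion. Sites were either genomic positions, most of which do not lie near their genes on GRCh38 although the labels list that build (hg38), or annotated transcript ends, which could be placed on GRCh38.

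The last 30 bases before the most distal listed end are shown for 9 Rab GTPases whose compartments are well known. They show which of these ends hold the canonical poly(A) signal and where it stands. Sequences are those of GENCODE release 44 transcripts on GRCh38, written 5′ to 3′ in the sense of the gene, and capitals mark AATAAA or ATTAAA, the main forms of the poly(A) signal that the cleavage machinery recognises. Each end lies in the 3′ UTR, in the last exon of the transcript listed.
RAB1A, endoplasmic reticulum to Golgi (chr2:65086854-65086883, minus strand): ttcacAATAAAaatcatagtttactttgta
RAB5A, early endosomes (chr3:19985146-19985175, plus strand): caggttggAATAAAgtggtataaaaagcaa
RAB7A, late endosomes and lysosomes (chr3:128814769-128814798, plus strand): atgccAATAAAattgaacaagaacaatgat
RAB10, exocytic vesicles (chr2:26137425-26137454, plus strand): tgttcatataaaaacaaaacttgatttcca
RAB11A, recycling endosomes (chr15:65891960-65891989, plus strand): tactcatgtctgggagagaacttttaaaaa
RAB21, endosomes that carry integrins (chr12:71800257-71800286, plus strand): ttttatataAATAAAatcatataacatgta
RAB22A, early endosomes (chr20:58367478-58367507, plus strand): tgttAATAAAatgctatgtttacaaatata
RAB27A, secretory granules and exosome release (chr15:55202966-55202995, minus strand): tgtAATAAAaaagtggtctagtctgtcaaa
RAB35, recycling to the plasma membrane (chr12:120095099-120095128, minus strand): atactaaaAATAAAggttcaagctgccaaa
In 7 of these 9 ends AATAAA stands within the window. The RAB10 and RAB11A ends hold neither form in their last 40 bases.

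Inner ends of RAB5A, RAB11A, RAB27A and RAB35, listed further upstream in the same last exon, are shown to set them against the distal ones.
RAB5A inner end, transcript subject to nonsense-mediated decay (chr3:19984118-19984147, plus strand): tgggcccacacagttaaccagcccatttct
RAB11A inner end, 3′ UTR of 883 nt (chr15:65888606-65888635, plus strand): gatttaaatgatctataataatttccaagc
RAB27A inner end, 3′ UTR of 158 nt (chr15:55205349-55205378, minus strand): tacgAATAAAgcatccggttctaaaattaa
RAB35 inner end, transcript subject to nonsense-mediated decay (chr12:120096366-120096395, minus strand): caaatcaagtgaATTAAAttcctcacaatt
RAB27A and RAB35 carry a signal at both ends, whereas RAB5A carries it at the distal end and not at the inner one, and RAB11A at neither.

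The GEFs and GAPs are shown through 4 genes. DENND11 and TBC1D22A were chosen after their values were seen, DENND11 for the long stretch between its ends and TBC1D22A for a signal at each end. RABGAP1, a GAP, and TBC1D15, a GAP of RAB7, show ATTAAA in place of AATAAA.
DENND11 inner end (chr7:141661930-141661959, minus strand): gttcctctttgtctgaaccttcctcttctt
DENND11 distal end (chr7:141656728-141656757, minus strand): ttacaATTAAAgttcacattttaacatgaa
RABGAP1 inner end, transcript subject to nonsense-mediated decay (chr9:123103239-123103268, plus strand): tcagaaaacacgacaccttttgttgccttc
RABGAP1 distal end (chr9:123104837-123104866, plus strand): atattgATTAAAtattttggtacaaacaaa
TBC1D15 most proximal end, no annotated stop codon (chr12:71893295-71893324, plus strand): cttgatgagccagcatatggtttaatacaa
TBC1D15 next end, no annotated stop codon (chr12:71897860-71897889, plus strand): agaatgaaactgcagtggaaatccatcagc
TBC1D15 end of a transcript subject to nonsense-mediated decay (chr12:71923333-71923362, plus strand): tcttacATTAAAgctttacaaagatttaaa
TBC1D22A inner end, transcript subject to nonsense-mediated decay (chr22:47174063-47174092, plus strand): aagAATAAAatgtagacaaaatctagaccg
TBC1D22A distal end (chr22:47175670-47175699, plus strand): cacggAATAAAgatcagtgacaaagccgcg
The distal ends of DENND11 and RABGAP1 hold ATTAAA, and their inner ends hold neither form. Of the 3 TBC1D15 ends, the last alone holds a signal.

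Of the 73 genes, 63 were in both tables, 4 were described from the MDA-LM2 table alone and 6 from the sgHNRNPC table alone. Over all genes, 5838 of 7504 were in both tables. The MDA-LM2 table gave 67 of these genes with 218 sites in 315 pairs, and the sgHNRNPC table gave 69 genes with 226 sites in 339 pairs. The median gene had 3 sites in each table, which is also the median over the 6541 and 6801 genes of the tables. Genes with just 2 sites made up 37.3% of the Rab group in the MDA-LM2 table, beside 47.1% of all genes, and 39.1% in the sgHNRNPC table, beside 45.0%. At the other end, 6 or more sites were listed for 7 genes (10.4%, beside 6.71% of all genes) and for 6 genes (8.7%, beside 8.35%). Most Rab genes and regulators thus entered the tables with 2 to 4 listed sites, and a small set had many more.

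**Figure D1:**
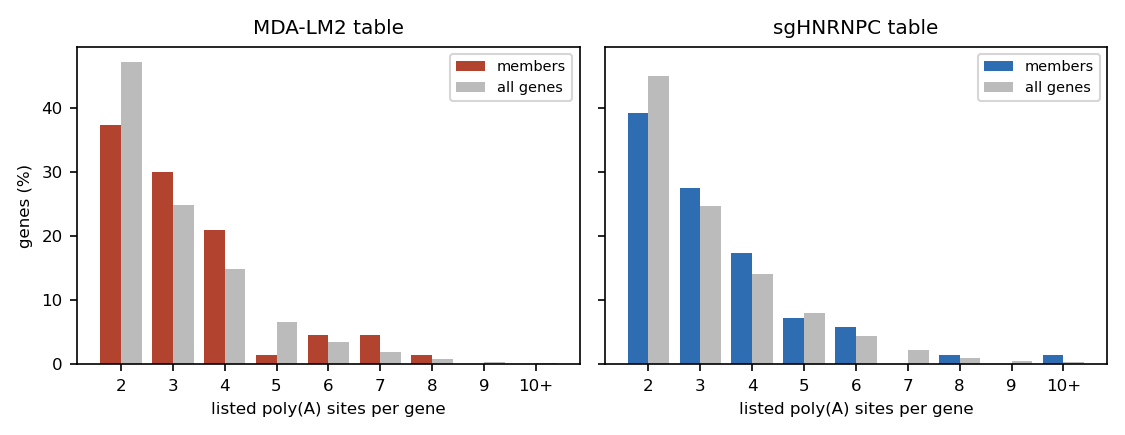
Share of genes (percent, vertical axis) with each number of listed poly(A) sites (horizontal axis) in the MDA-LM2 and sgHNRNPC tables, coloured bars for the 73 Rab genes and regulators and grey bars for all genes. The median is 3 sites for both sets in both tables, and 2 sites are less common among the Rab genes than among all genes.

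Roles were assigned from the gene name alone. DENND and RABGEF genes were taken as GEFs, and TBC1D, RABGAP and RAB3GAP genes as GAPs. RABEP and RAB11FIP genes were taken as effectors, and the activity of each protein was not checked. The 36 Rab GTPases had 111 sites in 31 genes of the MDA-LM2 table and 114 sites in 33 genes of the sgHNRNPC table, with a median of 3 in each. Genes with the most sites were named by a rule of 10 that a tie extended to 11. RAB21, at chr12:71754863-71800286 on GRCh38, had 7 and 10 sites in the MDA-LM2 and sgHNRNPC tables. It also has an annotated 3′ UTR of 14613 nt, the longest among the 73 genes. The 3 RAB21 sites of the sgHNRNPC table alone were 2 genomic positions and the end of a retained-intron transcript, so the most proximal and most distal sites were the same in both tables.

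RAB11A, which directs traffic through recycling endosomes, lies at chr15:65726054-65891989 and had 7 and 6 sites in the MDA-LM2 and sgHNRNPC tables. The inner end with a 3′ UTR of 883 nt was the site listed in the MDA-LM2 table alone. RAB2A, a GTPase of early secretory transport (chr8:60516936-60623644), also had 7 and 6. For RAB2A the site of the MDA-LM2 table alone was the end of the full-length 3′ UTR of 2875 nt, so the most distal site differed between the tables. RAB14, which works between the Golgi and early endosomes (chr9:121178133-121223014), had 6 and 5 sites and differed in the same way, with its 3′ UTR end of 3263 nt listed in the MDA-LM2 table alone. RAB18, a GTPase of the endoplasmic reticulum and lipid droplets (chr10:27504174-27543207), had the same 6 sites in both tables.

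RAB30, a Golgi GTPase with an annotated 3′ UTR of 9032 nt, had 4 and 5 sites, and every site was a genomic position. RAB5A had 5 and 4 sites. Its most proximal site in the MDA-LM2 table lies 27440 nt before the next genomic site and was listed in that table alone. These long distances set RAB5A apart from RAB18 and RAB2A, whose genomic sites lie within 1646 nt and 1843 nt of each other.

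**Figure D2:**
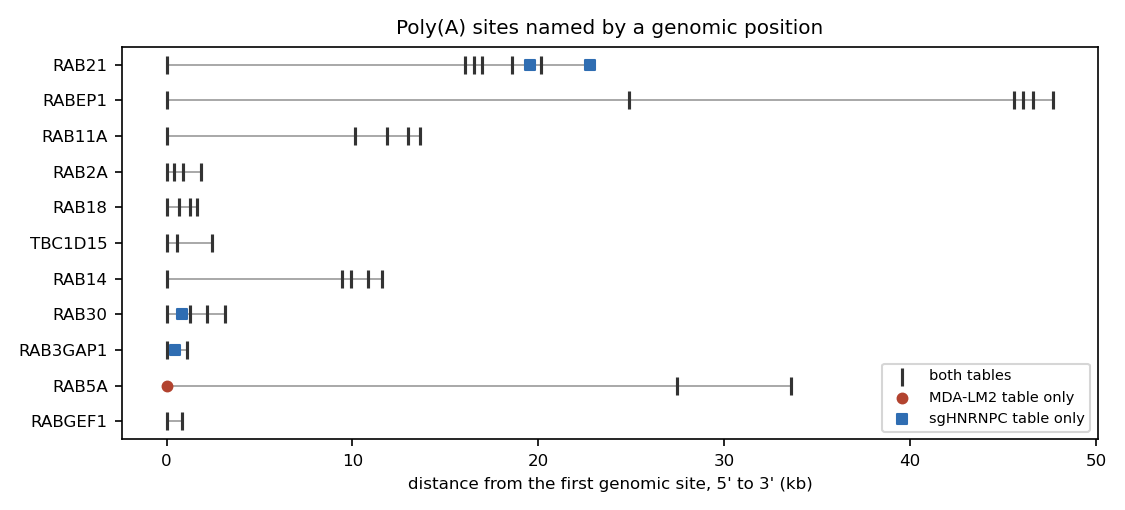
Genomic poly(A) sites of the 11 genes with the most listed sites, drawn by distance in kilobases from the first site in the direction of transcription (horizontal axis), with black ticks for sites of both tables, red circles for the MDA-LM2 table alone and blue squares for the sgHNRNPC table alone. RAB18, RAB2A and RABGEF1 have sites packed within 2 kb, whereas RABEP1, RAB5A and RAB21 span more than 20 kb.

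The other Rab GTPases with well-known compartments had fewer sites. RAB10, RAB8A and RAB27A, all of exocytic transport, had 4 sites in each table, and RAB1A, RAB7A and RAB35 had 3 in each. RAB4A, of fast recycling, RAB5B and RAB13, of transport to cell junctions, had 2 in each. Sites were the same in both tables for each of these genes except RAB27A. Its most proximal site in the MDA-LM2 table, a transcript end in another last exon, was in that table alone, and a genomic position was in the sgHNRNPC table alone. RAB22A had 4 and 3 sites, RAB5C 2 and 3, and RAB27B 2 and 3. RAB6A, a Golgi GTPase, had 4 and 2 sites, and the shared ones were the listed ends with its shortest and longest 3′ UTR. RAB11B was described from the MDA-LM2 table alone, with 2 sites, and RAB1B from the sgHNRNPC table alone, also with 2.

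**Figure D3:**
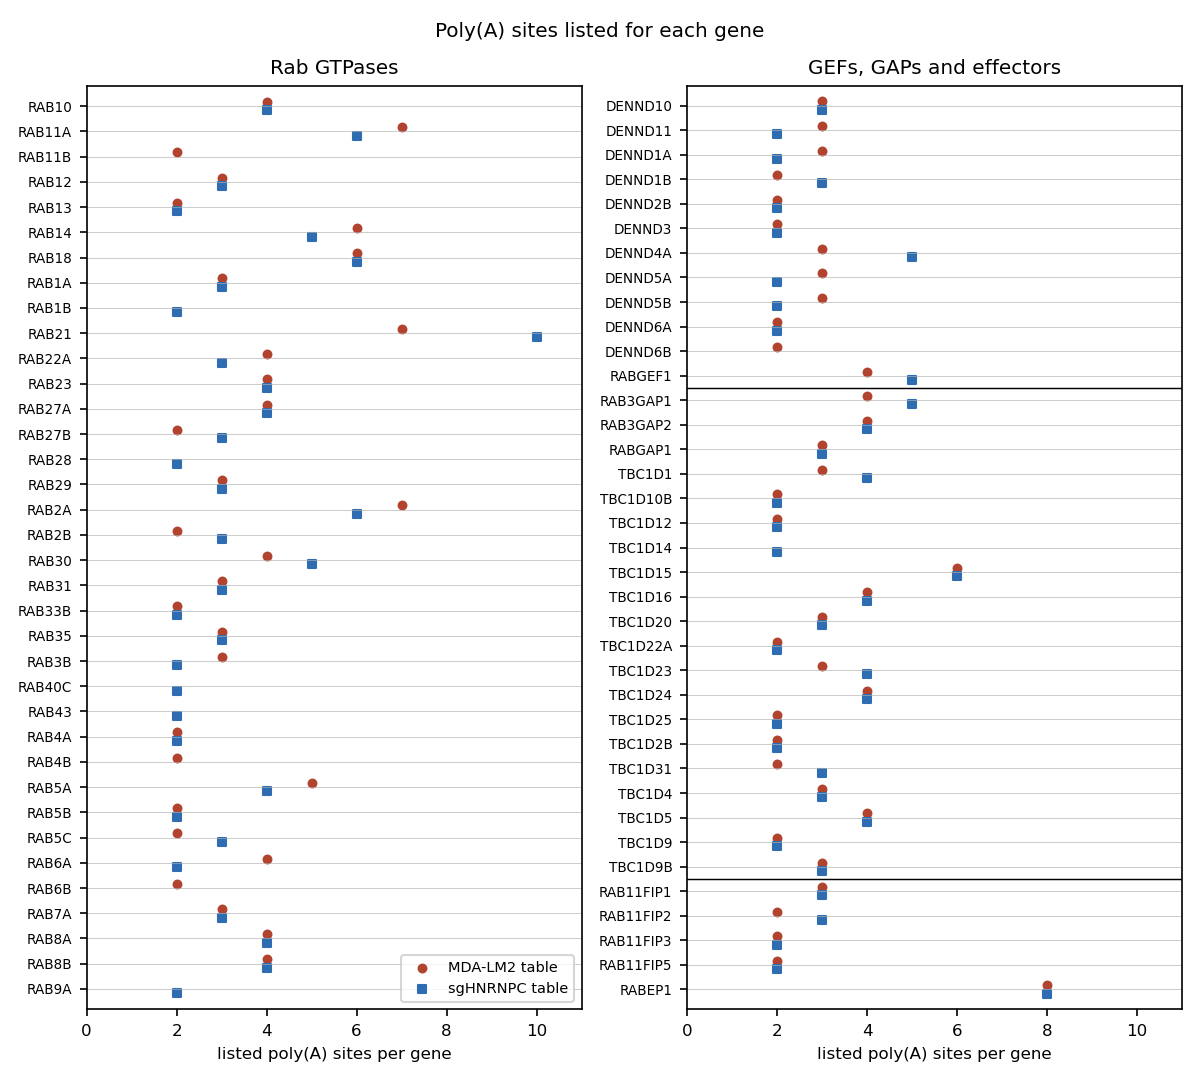
Number of listed poly(A) sites (horizontal axis) for each of the 73 genes, red circles for the MDA-LM2 table and blue squares for the sgHNRNPC table, with Rab GTPases at left and, at right, GEFs, GAPs and effectors parted by lines. RAB21 with 10 sites in the sgHNRNPC table and RABEP1 with 8 in each table stand at the high end, and a gene with a single marker was described from that table alone.

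The 12 GEFs had a median of 3 and 2 sites in the MDA-LM2 and sgHNRNPC tables. RABGEF1, the exchange factor of RAB5 (chr7:66682164-66811464), had 4 and 5 sites, the additional one being a transcript end upstream of the other sites. DENND4A, chosen after its values were seen, had 3 and 5 sites, and both additional sites were genomic positions between shared ones. DENND11, DENND1A, DENND5A and DENND5B, with 3 and 2 sites, each had a site of the MDA-LM2 table alone. Among the 11 GEFs in both tables, 4 had the same sites in both, namely DENND10, DENND2B, DENND3 and DENND6A, which are named here because they are few.

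Of the 20 GAPs, 19 were in both tables, and 12 of these had the same sites in both. The count was 14 of 28 for the Rab GTPases and 3 of 5 for the effectors, beside 53.3% of all genes in both tables, and differences between the roles were not tested. The GAPs had a median of 3 sites in each table. TBC1D15, at chr12:71839707-71927248, had the same 6 sites in both tables, of which the 3 proximal ones were transcript ends in 3 different last exons and the 3 distal ones genomic positions. RAB3GAP1 and RAB3GAP2 encode the catalytic and the non-catalytic subunit of the complex that acts on RAB3 as a GAP and on RAB18 as a GEF. RAB3GAP1 had 4 and 5 sites, and RAB3GAP2 had the same 4 in both tables. RABGAP1 had the same 3 sites in both.

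The 5 effectors included RABEP1, which binds RAB5 and RABGEF1 on early endosomes. RABEP1 (chr17:5282265-5386340) had the same 8 sites in both tables, 6 of them genomic positions spread over 47693 nt. Its RAB11-binding counterparts had fewer: RAB11FIP1 had 3 sites in each table, RAB11FIP2 had 2 and 3, and RAB11FIP3 and RAB11FIP5 had 2 in each. For RAB11FIP2 the annotated 3′ UTR end, its most distal site, was in the sgHNRNPC table alone. Of 32 Rab and regulator names fixed for description whether or not they stood out, 29 were in each table and 28 in both; RABEP2 and RABGAP1L are not analysed here.

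Genes that control Rab proteins under other names were counted as a separate list of 43. Of these, 22 were in the MDA-LM2 table, 21 in the sgHNRNPC table and 20 in both, with a median of 3 sites in each, the same as for the 73 genes. EHBP1, an effector that links RAB8 and RAB10 to the actin cytoskeleton, had 5 and 7 sites. RAB3IP, an exchange factor of RAB8, had 4 and 6. EEA1, the tethering effector of RAB5, and GAPVD1, a RAB5 exchange factor, had 5 in each table, and GDI2, which extracts GDP-bound Rab proteins from membranes, had 2 in each. These 5 were named after their values were seen, and 20 genes of the list are not analysed here.

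Over the 73 genes, 191 of the 253 distinct sites were in both tables. This is 87.6% of the MDA-LM2 sites and 84.5% of the sgHNRNPC sites, beside 84.5% and 78.5% over all genes. Among genes in both tables the shares were 91.0% and 89.3%, beside 91.5% and 87.0%. The same sites were listed for 33 of these 63 genes (52.4%, beside 53.3% of 5838 genes). The most distal site was the same in 56 (88.9%, beside 90.7% of all genes) and the most proximal in 48 (76.2%, beside 79.3%). The Rab genes were therefore like all genes in that the proximal side of the gene differed between the tables more often than the distal side.

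Sites listed in a single table stood in different places in the genes of both tables. Of 19 sites in the MDA-LM2 table alone, 11 were the most proximal of their gene, 4 the most distal and 4 lay between. Of 23 in the sgHNRNPC table alone, 7 were the most proximal, 3 the most distal and 13 lay between. The most proximal share was thus 57.9% and 30.4% for the Rab genes, beside 43.1% and 27.6% over all genes, where the order of the tables was the same. The most distal share was 21.1% and 13.0%, beside 10.2% and 17.2%, where the order was the opposite. It rests on 4 and 3 sites of the Rab genes.

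Genomic positions made up 52.8% of the Rab gene sites in the MDA-LM2 table (115 of 218, 95% Wilson interval 46.1 to 59.3%) and 54.4% of those of the sgHNRNPC table (47.9 to 60.8%, 123 of 226). Over all genes they made up 45.4% and 48.7%. These intervals treat the sites as independent draws and do not cover replicate error. By role, Rab GTPases had 59.5% and 61.4% genomic positions, effectors 76.5% and 72.2%, GEFs 40.6% and 43.3%, and GAPs 39.7% and 42.2%. Differences between the roles were not tested, and the effectors had just 17 and 18 sites in 5 genes. RABEP1 gave 6 of the 13 genomic positions of the effectors in each table. RAB11B, RAB13 and RAB5B had transcript ends alone, whereas RAB4A, RAB30 and RAB11FIP1 had genomic positions alone.

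The 2 kinds of site took different places along the gene. The most distal site was a transcript end in 60 genes of each table, which is 89.6% and 87.0% of the Rab genes, beside 89.1% and 91.8% of all genes. The most proximal site was a genomic position in 40 genes (59.7%, beside 49.9%) and in 42 (60.9%, beside 53.8%). RAB1A, RAB7A and RAB10 show this arrangement, with genomic positions followed by the annotated end of the 3′ UTR. TBC1D15 shows the reverse, with 3 transcript ends before 3 genomic positions.

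The median distance between neighbouring genomic sites of these genes was 961 nt in 57 distances of the MDA-LM2 table (quartiles 548 and 1872 nt). It was 838 nt in 67 distances of the sgHNRNPC table (quartiles 491 and 1875.5 nt). Medians over all genes were 880.5 and 791 nt. The shortest distance was 402 nt, found in RAB18 and RAB23, which was named for it, and none was at or below 400 nt. Over all genes, distances of up to 400 nt were 0.261% and 0.153% of the total. Over all genes the cumulative share rose steeply just above this distance. It went from 0.261% at 392 nt to 13.4% at 436.8 nt in the MDA-LM2 table. In the sgHNRNPC table it went from 0.153% to 14.2%. Closer genomic sites were thus rarely listed in either table. Whether this step comes from how the sites were listed was not tested, so it does not show that closer sites are rare in the cells.

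Beyond the short range, distances reached far. More than 2000 nt separated neighbours in 22.8% and 23.9% of cases, beside 23.7% and 19.2% over all genes. Over the whole gene, the genomic sites of RABEP1 spanned 47693 nt, those of RAB5A 33605 nt, of RAB21 22774 nt, of RAB11A 13627 nt and of RAB14 11589 nt. DENND1B, with 174249 nt, and DENND4A, with 31761 nt, were named after their values were seen. Each of these spans exceeds the longest annotated 3′ UTR of its gene, and RAB14, RAB11A and RAB21 owe most of theirs to 1 site far upstream of a group of closer ones, as the map of genomic sites shows.

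**Figure D4:**
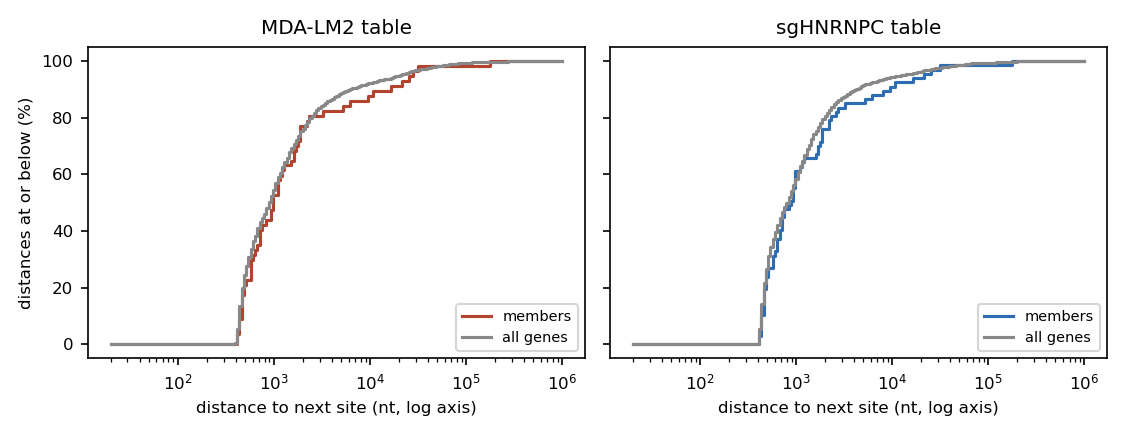
Cumulative share (percent, vertical axis) of distances between neighbouring genomic poly(A) sites of a gene (nucleotides, log horizontal axis) in each table, coloured for the Rab genes and regulators and grey for all genes. The curves of the Rab genes begin at 402 nt and have their medians at 961 and 838 nt, and those of all genes hold 0.261% and 0.153% of their distances at or below 400 nt.

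Annotated 3′ UTRs were longer in genes with more sites. The longest annotated 3′ UTR had a median of 2433 nt over the 73 genes, beside 2220 nt over the 7244 genes of the tables that have one. Its median was 1861 nt in genes with 2 sites over both tables, 2146 nt with 3, 2958 nt with 4 or 5 and 4044 nt with 6 or more, and the last class held 7 genes. Spearman's rho across genes was 0.42 for the 73 genes and 0.42 for all genes. These points share an annotation, and genes are not independent replicates. RAB5B and RAB6B go the other way, with 2 sites each and 3′ UTRs of 4471 and 4553 nt.

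Close relatives often differed in the number of sites. RAB11A had 7 sites over both tables and a longest 3′ UTR of 4149 nt, and RAB11B had 2 and 876 nt. RAB2A had 7 sites and 2875 nt, and RAB2B had 3 and 2176 nt. RAB8A and RAB8B had 4 sites each, although their longest 3′ UTRs were 1930 and 4157 nt. Among the RAB5 genes the longest 3′ UTR went with the fewest sites: RAB5A had 5 sites with 1352 nt, RAB5C 3 with 805 nt and RAB5B 2 with 4471 nt. Of 12 groups of relatives, formed after the values were seen and holding 25 genes, 5 had the same number of sites in each gene. In the others, the gene with the longest 3′ UTR had the most sites in 3 groups and did not in 4, so relatives showed no common order.

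Of 119 transcript ends listed for these genes, 109 in 65 genes were placed on GRCh38 (91.6%, beside 89.1% of 13046 over all genes). Protein-coding transcripts gave 78 of them, transcripts without a defined coding sequence 12, those subject to nonsense-mediated decay 11 and those with a retained intron 8. A 3′ UTR could be measured at 69 protein-coding ends, with a median of 2139 nt (quartiles 883 and 3263 nt), beside 1667 nt over all genes. Protein-coding transcripts thus made up 71.6% of the placed ends, beside 65.1% over all genes, and retained-intron transcripts 7.34%, beside 12%.

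AATAAA or ATTAAA was present in the last 40 nt of 54 of 109 placed ends (49.5%, 95% Wilson interval 40.3 to 58.8%), beside 47.7% over all genes. The share was 78.3% among the 60 ends that were the most distal site of a gene in a table (66.4 to 86.9%) and 14.3% among the 49 other ends (7.1 to 26.7%). All genes gave 78.1% and 12.9%. The RAB1A, RAB5A, RAB7A, RAB21, RAB22A, RAB27A and RAB35 distal ends printed above are among those with a signal, and RAB10, RAB11A, RAB11B, RAB1B, RAB5C and RAB8A to the 13 most distal ends without one. Of the 7 inner ends with a signal, RAB27A gave the single protein-coding one. The others, named because they are few, were in RAB2A, RAB35, TBC1D15, TBC1D20, TBC1D22A and TBC1D9B.

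The signal stood a median of 24.5 nt before the end, beside 23 nt over all genes. At 10 of 109 ends ATTAAA stood without AATAAA, beside 1136 of 11625 over all genes. Those of the Rab genes include ends of RAB13, RAB35, RAB11FIP2, RABGAP1 and TBC1D15. Ends of protein-coding transcripts with an annotated stop codon had a signal in 44 of 69 cases (63.8%, beside 71.0% over all genes). None of the 9 protein-coding ends without an annotated stop codon had one (interval up to 29.9%), beside 5.16% over all genes. By role the share was 48.0% of 50 ends for Rab GTPases, 44.4% of 18 for GEFs, 50% of 36 for GAPs and 80.0% of 5 for effectors, with intervals that overlap. Ends in both tables had a signal in 56.4% of 78 cases and ends in a single table in 32.3% of 31, beside 51.0% and 40.7% over all genes.

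HNRNPC is known to bind runs of U in RNA, so T runs were counted in the DNA sequence as a description of letters and not of binding. At least 5 T in a row stood in the last 100 nt of 29 of 109 ends (26.6%, interval 19.2 to 35.6%), beside 27.2% over all genes. The share was 40% at most distal ends and 10.2% at the others, beside 37.3% and 15.7%. In the 100 nt downstream of the ends it was 24.8%, beside 31.7%. Runs of 5 A stood at 11.9% of ends, beside 15.4%, but were counted in a shorter window that leaves out the last 40 nt, so the shares of A and T runs are not on the same footing. Rab genes were thus close to all genes in signals and T runs, and both features were more common at the distal ends in both sets.

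**Figure D5:**
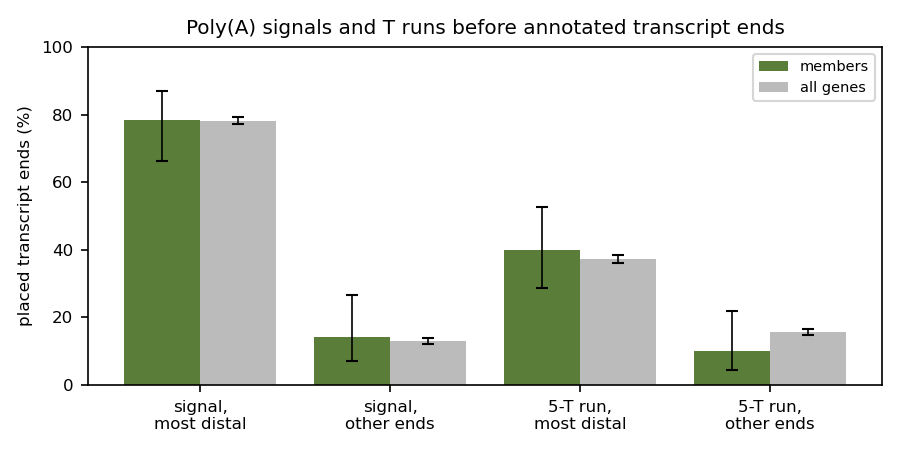
Share of placed transcript ends (percent, vertical axis) with a poly(A) signal in the last 40 nt or a run of 5 T in the last 100 nt, at the most distal sites and at other ends, for the Rab genes and regulators (green) and all genes (grey), with 95% Wilson intervals. The signal is found at 78.3% of most distal ends and 14.3% of other ends of the Rab genes.

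Placed ends of a gene can share a last exon or lie in different ones. Of 34 genes with at least 2 placed ends, 17 had them in more than 1 last exon (50%, interval 34.1 to 65.9%), beside 60.2% of 3499 genes overall. RAB27A, RAB2A, RAB3GAP2, RAB5C, RAB11B, RABGEF1 and TBC1D15 were among them. For RAB27A, RAB5C, RAB11B, RABGEF1 and TBC1D15 this rests on protein-coding transcripts without an annotated stop codon. The ends of RAB3GAP2 lie 37362 nt apart and those of RABGEF1 37782 nt apart. Neighbouring ends lay a median of 3353 nt apart over 44 distances, beside 4297 nt over all genes.

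Within a single last exon, 26 pairs of ends in 22 genes lay a median of 1524.5 nt apart, beside 1564.5 nt over 2356 pairs of all genes. For RAB27A the 3′ UTR was 158 nt at the inner end and 2541 nt at the distal end. The 2383 nt between these ends held 15 windows of 5 T and 15 copies of ATTTA. Windows were counted at every starting base, so a run longer than 5 T counts more than once. ATTTA is the core of AU-rich elements that can shorten mRNA life. RAB6A had ends with 3′ UTRs of 4, 499 and 2260 nt, of which the last alone carried a signal. RAB11A went from 883 to 4149 nt, with 35 windows of 5 T between its ends. RAB8A went from 686 to 1930 nt and RAB5B from 2494 to 4471 nt, with 15 and 39 such windows. In each of these genes the transcripts listed thus differ in 3′ UTR length, and the stretch between their ends holds T runs. For RAB11A and RAB8A the difference in length is not the distance between the ends, 3354 and 1224 nt, so their 3′ UTRs also differ upstream.

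RABEP1 had an annotated end at the stop codon and another 3117 nt downstream. DENND11, with 3′ UTRs of 726 and 5928 nt, held 20 T runs and 12 copies of ATTTA in 5202 nt. The 1607 nt between the TBC1D22A ends held 0 of each. T runs were present in 22 of the 26 spans (84.6%, beside 90.2% over all genes) and ATTTA in 20 (76.9%, beside 83.4%). Per kilobase the medians went the other way, with 7.16 T runs, beside 6.33, and 2.38 copies of ATTTA, beside 2.05. The distal end carried a signal in 21 pairs (80.8%, beside 71.3%) and the proximal end in 6 (23.1%, beside 21.9%).

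The study also lists sequences derived from HNRNPC crosslinking and immunoprecipitation (CLIP). These are the binding sites cloned into its reporter library and not the full set of mRNAs bound by HNRNPC. Of 98 such sequences that were not scrambled controls, 95 were found in a transcript of the annotation, and 95 genes of the tables (1.27%) hold one. None of the 73 genes did, and at a share of 1.27% a set of this size can easily hold none. This says that these listed sequences are not in the transcripts of Rab genes, and nothing on whether HNRNPC binds them elsewhere.

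Reads from near-identical genes can be split between them, so the last 300 nt before each placed end were compared with every other gene of the annotation in words of 31 nt. Of 29430 words, 8.69% occurred in another gene, beside 7.9% over all genes, and 88 of the 109 ends (80.7%, beside 78.5%) shared none. RAB43 and RAB4B shared every word at their single placed end with the readthrough genes ISY1-RAB43 and MIA-RAB4B. RABGEF1 shared 73.3% of its words, DENND10 50.1%, RAB13 50% and RAB5C 50%. For DENND10 the copy was the processed pseudogene DENND10P1, and for RAB13 it included a processed pseudogene on chromosome 12. RAB8A shared 32.8%, through HSH2D, and RAB6A 28%, through RAB6C and RAB6D. RAB8A and RAB6A are among the fixed names, but their shares were picked for mention here after they were seen. Site lists of these genes are uncertain where the counting could have split reads, and RAB21, RAB11A, RABEP1, RAB27A and RAB35 shared 6.3% or less.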

How the data were processed

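QuantSeq 3′-end libraries of 8 samples, 2 replicates of each of 4 groups, were processed by the authors. By the paper's account, reads were assigned by Salmon 0.14.1 to distinct transcript ends taken from Gencode. The paper does not state where the sites named by a genomic position came from. APAlog, a multinomial logistic regression, was then run on every pair of sites of a gene to compare conditions. The submitters' processing notes also list UMI-tools. Each table gives, for a pair, the log change of the proximal-to-distal ratio with its p-value and q-value. These columns are the authors' own comparisons and were not used. Site names, strand, gene identifier and symbol were used. Depth per sample is therefore unknown, and groups were not compared.

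Members and lists were chosen with earlier results of these data known. Sites per gene were the distinct names in its pairs, ordered by the pairs. Genomic positions were kept in the tables' own coordinates: 15 of 134 (11.2%) lay within 5000 nt of their gene on GRCh38, beside 12.7% over all genes, so they were neither placed nor converted. Transcript ends were looked up on GRCh38 in GENCODE release 44 by their versioned identifiers. Genomic pairs followed the strand in all 106 and 132 cases, whereas 160 and 159 pairs of mixed kind could not be checked. The signal was AATAAA or ATTAAA in the last 40 nt, read on the sense strand, and T runs were of at least 5 in the last 100 nt. Sequences of some other inner ends are not reported here. Shared words were of 31 nt, on the sense strand of other genes' transcripts, in the last 300 nt. Intervals are 95% Wilson intervals and cover counting error only. Python 3.11.15, pandas 2.3.3, numpy 2.4.6, scipy 1.17.1 and matplotlib 3.10.9 were used, and the word search, site order and merging were tested on simulated data.

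Genes named were the 10 with the most sites summed over both tables with ties, those with a CLIP-derived sequence, 32 fixed Rab and regulator names, and the 5 with the largest share of words found in other genes, with ties. Any other gene was named with its values already seen. Alternatives covered merging of sites within 24 nt, genes in both tables, the kind of site, signal and run definitions, protein-coding transcripts, and word length.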

Additional observations from a re-analysis of the deposited data

How the results depend on the processing

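Alternatives were computed for 14 results, 31 in all, and 20 of them stayed within the interval of the value reported or within 1.5 times a count. Of these, 8 merged genomic positions within 24 nt and could not change, since the closest lie 402 nt apart, and the count of 0 genes with a CLIP-derived sequence could not fall. With transcript ends alone, sites per gene had a median of 2.0 and 1.0 in the MDA-LM2 and sgHNRNPC tables, and with genomic positions alone of 1.0 in the MDA-LM2 table, since each leaves out a kind of site. The share of sgHNRNPC sites in both tables was 89.3% with genes of both tables alone, which leaves out genes that could share none. The median distance between the outermost genomic sites of a gene was 1870 and 1843 nt, a longer span by construction. T runs stood at 9.17% of ends with at least 6 T and at 44% with 100 nt on both sides of the end, and runs of A at 11.9%. With protein-coding transcripts alone, 8 genes had ends in more than 1 last exon, as fewer ends enter. These were 8 of 16 genes, again 50%, beside 51.3% over all genes in place of 60.2%. All 8 had more than 1 last exon only through transcripts without an annotated stop codon, whose ends held no signal. The share of 50% therefore rests on those transcripts. Shared words of 50 nt made up 7.56%, beside 5.37% over all genes, a longer word being harder to match.

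No paired analysis was possible because no value of a single sample was used and no result comes from a test. The number of sites depends on the depth and filters behind the tables, which are unknown, so a gene or site in a single table need not differ between the cells. Placed ends are 109 of 119, and they rest on the annotation; genomic positions have no sequence here.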
